A study of Mus musculus with 62 samples.

Results

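The comparison described here is that of chronic stress in the prefrontal cortex (PFC): 15 libraries of mice that went through multimodal chronic restraint stress (mCRS) against 15 libraries of unstressed control mice (CTR), 30 of the 62 libraries sequenced. The remaining 32 libraries are from the nucleus accumbens (NAc) of the same experiment and enter only where a PFC difference was set against that in the NAc. All mice were wild-type C57BL/6j males, 15 weeks old at collection. In the mCRS protocol mice were restrained every day for several weeks under changing conditions, and tissue was taken some days after the last session. Each library is from 1 brain region of 1 mouse and both groups are labelled prefrontal cortex, with no layer or subregion given. Mice were housed in groups, and which libraries come from cage mates is not given. The count of each gene was tested, and the genes described are neuronal, synaptic, signalling, stress-response, cytoskeletal and glial ones. The mitochondrial and ribosomal protein families are left out, except where a gene of small p is encoded outside them by its symbol.

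The PFC is built of excitatory pyramidal neurons, which release glutamate, and of GABAergic interneurons that inhibit them, with astrocytes, oligodendrocytes, microglia and vessels in between. Restraint activates the hypothalamus-pituitary-adrenal axis, and the corticosterone it releases acts on 2 nuclear receptors, the glucocorticoid receptor Nr3c1 and the mineralocorticoid receptor Nr3c2, both present in cortical neurons. Chronic restraint is known for shorter dendrites and fewer spines of pyramidal neurons in the medial PFC of rodents. In bulk tissue such as this, fewer cells of a type and less RNA per cell cannot be told apart.

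Expression was measured by BRB-seq, which counts reads at the 3′ end of polyadenylated RNA. The CTR libraries held between 1556146 and 4203018 counts (median 2398072) and the mCRS libraries between 1094940 and 3903479 (median 1966931). The share of the 11121 listed genes with at least 1 count was 87.1% ± 4.42 (SD, n = 15) in CTR and 82.3% ± 6.22 (SD, n = 15) in mCRS libraries, a difference of -4.75 percentage points with overlapping groups (two-sided permutation test, p = 0.0220). The 2 libraries with the fewest genes, mCRS 12 with 69.7% and mCRS 3 with 71.2%, were both stressed, and without them the difference was -2.93 percentage points (p = 0.0852, same test). After thinning to the total of the shallowest library, the shares were 84.4% and 80.1% (p = 0.0218). The 10 most abundant genes took 14.6% ± 2.94 of the counts in CTR and 17.8% ± 3.82 in mCRS libraries (SD, n = 15 each; p = 0.0168, same test). That was a difference of 3.15 percentage points. Genes of mitochondrial DNA (mtDNA) took a mean of 12.9% of the counts in CTR libraries. Their share was 3.16 percentage points higher in mCRS libraries (p = 0.0151, same test). Whether the share of the 10 most abundant genes differed apart from mtDNA was not tested. Because the share of genes detected moved with the groups, each gene was also fitted with the percent of genes detected as a covariate. Markers were those of cortex: Slc17a7, Camk2a, Tbr1 and Neurod6, which mark cortical excitatory neurons, had counts in all 30 libraries. The hypothalamic peptides Avp and Oxt had counts in 16 and 15 of 30 libraries and did not exceed 29.7 CPM (the count scaled to the TMM-normalized library total) in any.

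**Figure D1:**
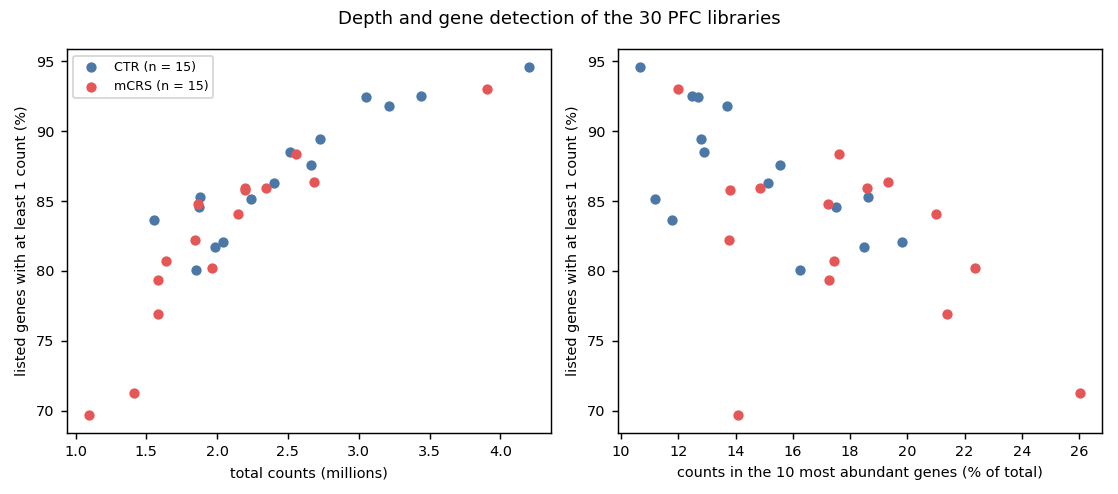
Share of the 11121 listed genes with at least 1 count in each of the 30 PFC libraries, plotted against the total counts (left) and against the percent of counts in the 10 most abundant genes (right); each point is 1 library, blue for CTR and red for mCRS. Detection follows depth, and the 2 lowest points, at 69.7% and 71.2%, are mCRS libraries.

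Of the 8916 genes that passed the filter on low counts, 0 differed between mCRS and CTR at a false discovery rate (FDR) below 0.05 by edgeR's quasi-likelihood test, 0% of those tested, and the smallest FDR was 0.102. At an unadjusted p below 0.05 there were 312 genes, 3.50%, of which 189 were higher (2.12%) and 123 lower (1.38%) after mCRS. With no difference in any gene, uniform p values would place a share of 0.05 under that cut. The 3.50% is thus no excess over all tested genes, and a small p of a single gene is to be read in that light. DESeq2 gave 439 genes at that p and 0 at an FDR below 0.05. No gene is therefore called, and the values below describe differences that are large relative to their own spread but not after adjustment for 8916 tests; a p without further label is unadjusted and from edgeR. The mitochondrial and ribosomal families contributed 57 of the 312 (55 higher), 21.4% of their 266 tested members. Outside them 255 of 8650 genes (2.95%) had a p below 0.05, 134 higher and 121 lower. When each of the 30 libraries was left out in turn, 145 of the 312 genes (1.63% of those tested) kept a p below 0.05 in the same direction in all 30 fits, 97 higher (1.09%) and 48 lower (0.538%), and 102 of these lay outside the families. In the text, a gene is said to hold when it is one of these 145.

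Several of the smallest p values rested on 1 library each. Rab31 (ENSMUSG00000056515, chr17:65651729-65772752), a small GTPase of endosomal transport, had the smallest p of all genes, and lay between 0.530 and 5124 CPM (median 30.029) in the CTR libraries and between 3.55 and 52.1 CPM (median 32.5) in the mCRS libraries. CTR 5 alone held 85.5% of the gene's CPM over the 30 libraries, 49.5 times the next library, and the other 29 libraries overlapped throughout. The log2 fold change, mCRS minus CTR, was -3.73 ± 0.77 (SE, p = 1.14e-05, FDR = 0.102) with CTR 5 and -0.20 (p = 0.761) without it. Peg3, an imprinted zinc finger gene, showed the same picture in the other group: mCRS 3 held 20977 CPM, the next library 511, and the log2 fold change went from 2.59 ± 0.59 (p = 5.9e-05) to -0.24 (p = 0.385) without mCRS 3. Bdnf, the neurotrophin that acts on TrkB at excitatory synapses, lay between 21.1 and 265 CPM (median 60.3) in the CTR libraries and between 20.984 and 5772 CPM (median 89.1) in the mCRS libraries. Its level in mCRS 9 came from 8879 of the gene's 15733 counts, whereas no other library held more than 780. The log2 fold change of Bdnf was 2.28 ± 0.57 (p = 0.000215) with mCRS 9 and 0.05 (p = 0.903) without it, so that the 29 other libraries show no difference beyond their spread. For Cct8, a subunit of the cytosolic chaperonin, CTR 1 held 14148 CPM and the next library 669. Its log2 fold change of -2.03 ± 0.55 (p = 0.000475) turned to 0.49 (p = 0.0596) without CTR 1. A test on ranks, in which 1 library cannot carry a difference, gave p = 0.969 for Rab31, 0.513 for Peg3, 0.512 for Bdnf and 0.232 for Cct8 (permutation test, 100000 resamples). DESeq2, which by default replaces single outlying counts in groups of this size, gave a log2 fold change of -0.22 (p = 0.424) for Peg3 and 0.50 (p = 0.0529) for Cct8. Over all tested genes, 6 had a highest library at least 10 times the second: these 4, Tma7 (CTR 6) and S100pbp (mCRS 12), the last 2 named after their values were seen. In each of the 6 the highest library was a different one.

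**Figure D2:**
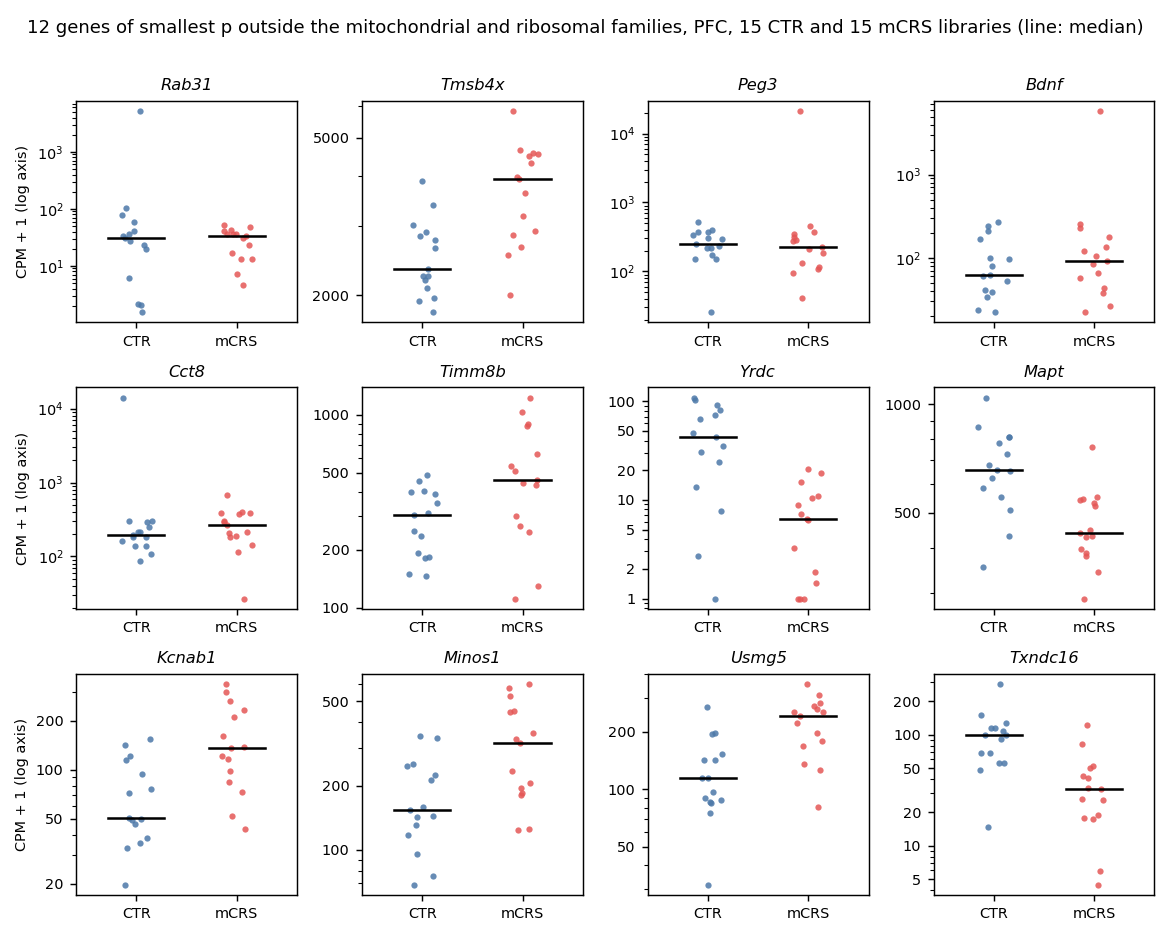
Level of the 12 genes of smallest p outside the mitochondrial and ribosomal families in each PFC library, as CPM + 1 on a log axis; blue points are the 15 CTR and red points the 15 mCRS libraries, and the line is the group median. In Rab31, Peg3, Bdnf and Cct8 a single library stands far above the others. Their mCRS medians are 1.08, 0.924, 1.48 and 1.37 times the CTR medians, in that order. In Tmsb4x, Mapt, Kcnab1, Yrdc, Usmg5 and Txndc16 the groups are shifted as a whole, with overlap.

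The other 8 of the 12 genes of smallest p held without any 1 library. Tmsb4x (ENSMUSG00000049775, chrX:167207093-167209315), which encodes thymosin beta 4, a peptide that binds actin monomers, lay between 1811 and 3887 CPM (median 2335) in the CTR libraries and between 2003 and 5829 CPM (median 3942) in the mCRS libraries. The groups overlapped, but 14 of 15 mCRS libraries were above the CTR median. Its log2 fold change was 0.55 ± 0.12 (SE; 1.47-fold; p = 2.71e-05, FDR = 0.121) and ranged from 0.50 to 0.61 without any 1 library. With gene detection as a covariate it was 0.32 (p = 0.00469). Tmsb4x is known for processed pseudogenes of near-identical sequence. As only uniquely mapped reads were counted, reads that match several sites equally well are missing from its count. Mapt (ENSMUSG00000018411, chr11:104231390-104332090), the gene of the microtubule-binding protein tau, lay between 354 and 1042 CPM (median 657) in the CTR libraries and between 289 and 762 CPM (median 439) in the mCRS libraries. Of the mCRS libraries, 14 of 15 were under the CTR median although the ranges overlapped. Its log2 fold change was -0.53 ± 0.15 (SE, p = 0.000753, FDR = 0.560), 0.694 times the CTR level, and lay within -0.59 to -0.47 when single libraries were left out. The covariate moved it to -0.49 (p = 0.00424). Kcnab1 (ENSMUSG00000027827, chr3:65109384-65378223), an auxiliary beta subunit of Kv1 potassium channels, lay between 18.8 and 153 CPM (median 49.7) in the CTR libraries and between 42.2 and 336 CPM (median 136) in the mCRS libraries. All but 1 of the mCRS libraries were above the CTR median. The log2 fold change of Kcnab1 was 1.12 ± 0.32 (p = 0.000906), 1.22 (p = 0.000896) with the covariate, and its p did not exceed 0.00337 without any 1 library.

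Yrdc and Txndc16 were lower. Yrdc (ENSMUSG00000028889, chr4:124850679-124855242), which takes part in a modification of tRNA, lay between 0 and 108 CPM (median 42.022) in the CTR libraries and between 0 and 19.5 CPM (median 5.36) in the mCRS libraries. None of the 15 mCRS libraries was above the CTR median, although the lowest CTR libraries lay within the mCRS range. For Yrdc the log2 fold change was -2.83 ± 0.79 (p = 0.000748) and ranged from -3.04 to -2.69 without any 1 library. Exons of Yrdc share up to 488 bases with 1110065P20Rik on the opposite strand in the GENCODE annotation of GRCm38, and whether the counting used strand is not given in the sources used here. That neighbour had a log2 fold change of 0.36 ± 0.31 (p = 0.252). Other named genes also share exon bases with a gene on the opposite strand, among them Bdnf (up to 497 bases), Cct8 (192) and Adcy2 (189). For Txndc16, Cadm2, Kcnab1 and Timm8b the longest such overlaps were 159, 110, 83 and 81 bases. Txndc16, a thioredoxin-domain protein of the endoplasmic reticulum, lay between 13.8 and 287 CPM (median 98.041) in the CTR libraries and between 3.47 and 122 CPM (median 31.6) in the mCRS libraries, with 14 of 15 mCRS libraries under the CTR median and a log2 fold change of -1.41 ± 0.42 (p = 0.00143). The last 3, Timm8b, Minos1 and Usmg5, encode small mitochondrial proteins whose symbols lie outside the families left out, and were all higher. Their log2 fold changes were 0.88 ± 0.24, 0.85 ± 0.24 and 0.84 ± 0.24 (SE; p = 0.000703, 0.000967 and 0.00105). With gene detection as a covariate, Timm8b was at 0.41 (p = 0.103), Minos1 at 0.42 (p = 0.0853) and Usmg5 at 0.63 (p = 0.0226).

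**Figure D3:**
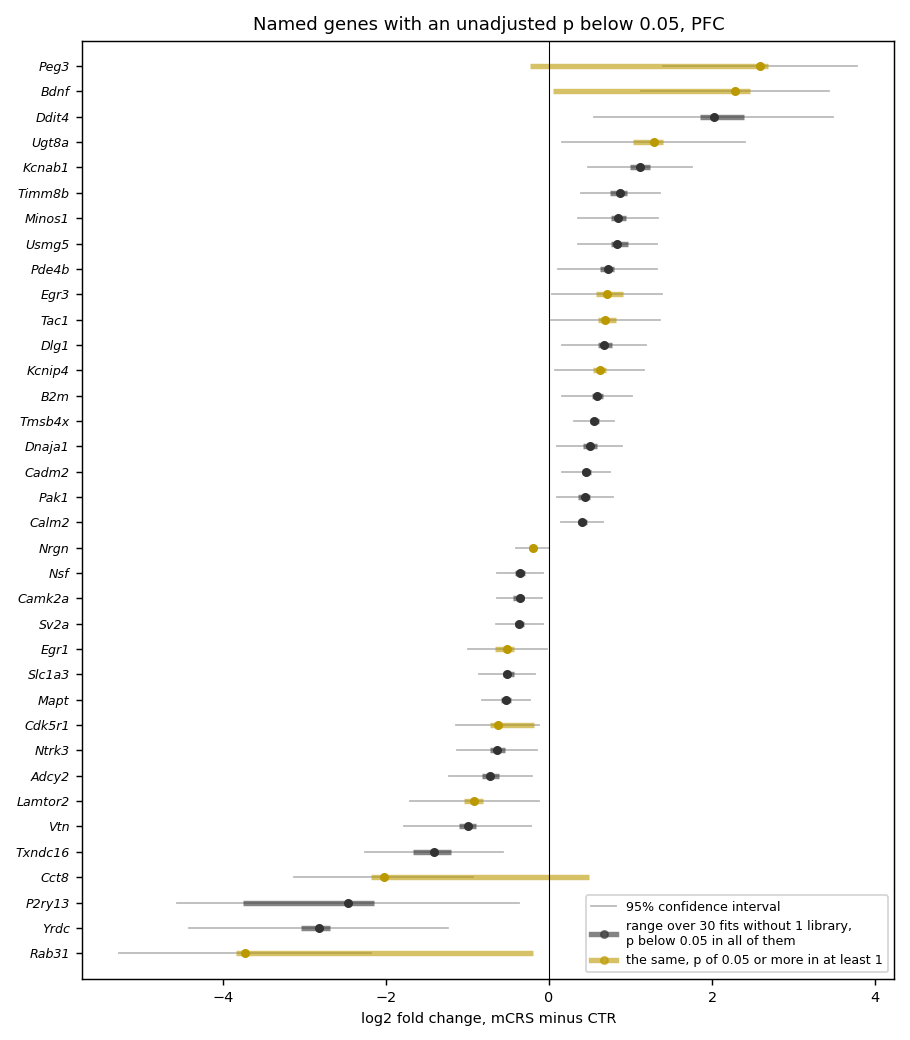
Log2 fold change (mCRS minus CTR) of 36 of the 37 named genes with an unadjusted p below 0.05 in the PFC; the point is the estimate from all 30 libraries, the thin grey line its 95% confidence interval and the thick bar the range over the 30 fits that each leave out 1 library. Dark bars belong to the 24 genes whose p stayed below 0.05 in all 30 fits, the yellow bars of Peg3 and Cct8 cross 0, and those of Rab31 and Bdnf end near it, at -0.20 and 0.05.

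Among genes of excitatory neurons, Camk2a was the one that held. All 22 listed members were tested, 0 were higher and 2 lower at a p below 0.05, Camk2a and Nrgn, 9.09% beside 3.50% of all genes. Of the 22, 17 had a fold change below 0 and the median was -0.16, beside -0.01 over all tested genes. Camk2a, the alpha subunit of the calcium/calmodulin-dependent kinase of excitatory synapses, lay between 593 and 1486 CPM (median 985) in the CTR libraries and between 517 and 1291 CPM (median 737) in the mCRS libraries. Only 1 mCRS library was above the CTR median, and the ranges overlapped over most of their extent. Camk2a was at a log2 fold change of -0.36 ± 0.14 (SE, 95% CI -0.63 to -0.09, p = 0.0100, FDR = 0.9997), 0.0283 being the highest p without any 1 library. With gene detection as a covariate it was -0.28 (p = 0.0594). Nrgn, which encodes the calmodulin-binding protein neurogranin of dendritic spines, was at -0.20 ± 0.10 (p = 0.0469) and did not hold. The vesicular glutamate transporter Slc17a7, which defines these neurons, lay between 411 and 987 CPM (median 607) in the CTR libraries and between 245 and 916 CPM (median 564) in the mCRS libraries, a log2 fold change of -0.20 ± 0.16 (p = 0.208). Summed over the 22 genes the level lay between 8109.9 and 11158 CPM (median 9233) in the CTR and between 7250.3 and 10420.4 CPM (median 8264) in the mCRS libraries. With the covariate the median of the list was -0.05, and 0 of its members had a p below 0.05, beside 2.06% of all tested genes. Counts in the other lists are to be read beside 3.50% of all tested genes, and counts with the covariate beside 2.06%.

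GABAergic interneuron genes were close to the other genes. Of 18 tested members, 1 was higher at a p below 0.05 (5.56%) and the median was 0.08, or -0.07 with the covariate. The synthesizing enzymes Gad1 and Gad2 were at 0.11 ± 0.19 (p = 0.576) and 0.07 ± 0.29 (p = 0.805), parvalbumin (Pvalb) at 0.31 ± 0.43 (p = 0.470) and somatostatin (Sst) at -0.01 ± 0.15 (p = 0.949). Sst had the narrowest interval of these, -0.32 to 0.30 (95% CI). Tac1, a tachykinin precursor that is also on the list of striatal projection neurons, was the member past that p, at 0.69 ± 0.33 (p = 0.0438); it lay between 14.4 and 146 CPM (median 62.009) in the CTR libraries and between 22.5 and 197 CPM (median 111) in the mCRS libraries and did not hold, its p reaching 0.0880 without 1 library. Npy, the neuropeptide Y gene of another set of interneurons, was at 0.38 ± 0.22 (p = 0.0832), with 13 of 15 mCRS libraries above the CTR median.

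At the synapse, ionotropic glutamate receptor genes had the list median farthest below 0 among the neuronal and synaptic lists, -0.30, but 0 of the 21 tested members had a p below 0.05. Of these, 18 were below 0. The members of smallest p were the AMPA receptor subunits Gria3, at -0.37 ± 0.20 (p = 0.0724), and Gria1, at -0.34 ± 0.19 (p = 0.0767). Gria1 lay between 197 and 585 CPM (median 262) in the CTR libraries and between 106 and 376 CPM (median 221) in the mCRS libraries. The highest CTR library, CTR 15, lay 1.56 times above the next one, and without CTR 15 Gria1 was at -0.23 (p = 0.227). Gria2, which makes AMPA receptors impermeable to calcium, was at 0.13 ± 0.14 (p = 0.343), on the other side of 0, and Grin1, the obligatory NMDA receptor subunit, at -0.20 ± 0.21 (p = 0.340). The summed level of the listed subunits lay between 3249 and 5065 CPM (median 3572) in the CTR and between 2929 and 3740.2 CPM (median 3402) in the mCRS libraries. Without any 1 library the median of the list ranged from -0.32 to -0.18, and with the covariate it was -0.20. The 7 metabotropic receptors gave 0 genes at a p below 0.05, with Grm2 at -0.86 ± 0.68 (p = 0.209) and Grm5 at 0.23 ± 0.20 (p = 0.248).

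GABA receptor genes had 1 higher and 0 lower of 18 (5.56%) and a median of 0.01, and Gabra2, an alpha subunit of GABA-A receptors, was at -0.66 ± 0.40 (p = 0.107).

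**Figure D4:**
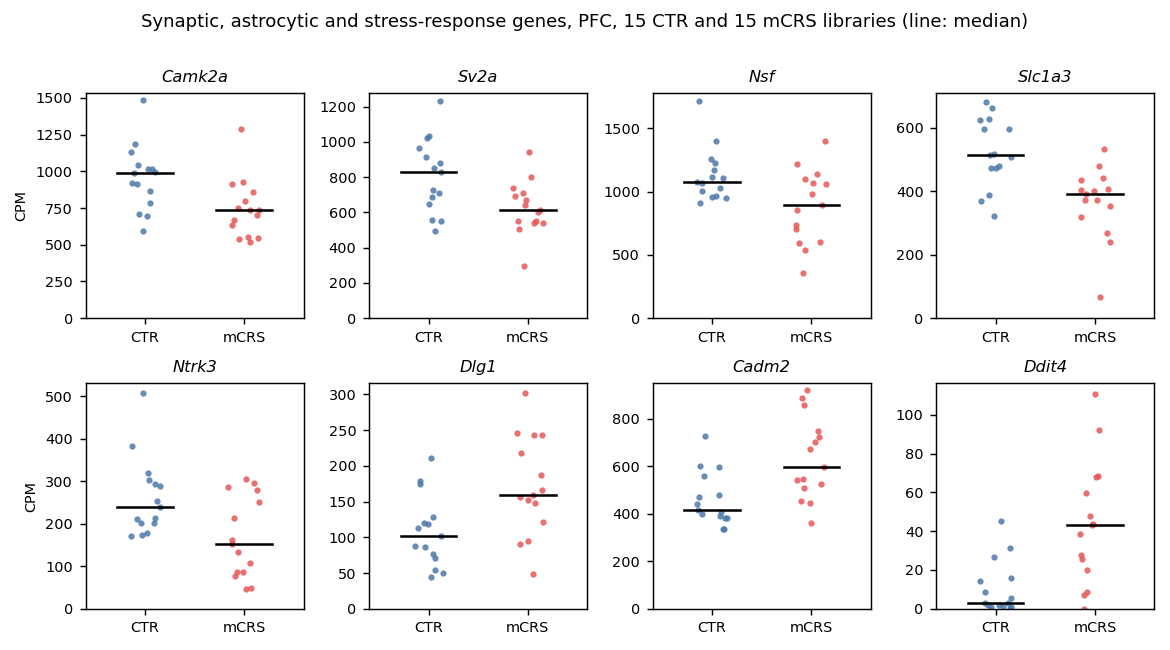
CPM (linear axis from 0) of 8 synaptic, astrocytic and stress-response genes in each PFC library; blue points are the 15 CTR and red points the 15 mCRS libraries, and the line is the group median. Camk2a, Sv2a, Nsf, Slc1a3 and Ntrk3 have lower and Dlg1, Cadm2 and Ddit4 higher mCRS medians, and the groups overlap in all 8.

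Genes of vesicles and release had 3 of 40 tested members lower and 0 higher at a p below 0.05 (7.50%), with a median of -0.09. Sv2a, a glycoprotein of synaptic vesicles, lay between 493 and 1231 CPM (median 826) in the CTR libraries and between 295 and 941 CPM (median 615) in the mCRS libraries. Nsf, the ATPase that takes SNARE complexes apart after fusion, lay between 908 and 1712 CPM (median 1077) in the CTR libraries and between 355 and 1397 CPM (median 895) in the mCRS libraries. For both the groups overlapped, with 14 and 11 of 15 mCRS libraries under the CTR median. Their log2 fold changes were -0.36 ± 0.14 (p = 0.0134) and -0.36 ± 0.14 (p = 0.0154), and both held. Syt7, a calcium sensor of release, was the third, at -0.41 ± 0.20 (p = 0.0473), and did not hold. Snap25, a SNARE protein of the plasma membrane, was one of the most precisely measured genes. It lay between 1589.7 and 2853 CPM (median 2243) in the CTR libraries and between 1491 and 2846 CPM (median 2168) in the mCRS libraries. Its log2 fold change was -0.01 ± 0.09 (95% CI -0.20 to 0.18). With gene detection as a covariate 0 of the 40 genes had a p below 0.05, beside 2.06% of all tested genes. Sv2a was then at -0.31 (p = 0.0525) and Nsf at -0.25 (p = 0.0919).

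In the postsynaptic density 1 gene was higher and 3 were lower of 29 tested (13.8%), and the median was -0.20. With the covariate 1 was higher and 0 were lower, beside 2.06% of all tested genes, and the median was -0.12. The lower ones were Camk2a and Nrgn, already given, and Dlgap3, a scaffold that links PSD-95 to Shank proteins, at -0.63 ± 0.28 (p = 0.0318), which did not hold and was at -0.34 (p = 0.241) with the covariate. The higher one was Dlg1, the scaffold SAP97 that carries AMPA receptors, which lay between 44.3 and 211 CPM (median 101) in the CTR libraries and between 48.992 and 303 CPM (median 159) in the mCRS libraries. The log2 fold change of Dlg1 was 0.67 ± 0.26 (p = 0.0121), it held, and with the covariate it was 0.84 (p = 0.00419). Among 46 adhesion genes of the synapse, 2 were higher and 1 lower (6.52%), all of which held, beside a median of -0.10. Cadm2, an immunoglobulin-type adhesion molecule of axons, lay between 335 and 727 CPM (median 416) in the CTR libraries and between 362 and 919.9 CPM (median 598) in the mCRS libraries. With 14 of 15 mCRS libraries above the CTR median, its log2 fold change was 0.46 ± 0.15 (SE, p = 0.00316, FDR = 0.854) and 0.40 (p = 0.0160) with the covariate. Lrrtm4, a postsynaptic partner of presynaptic heparan sulfate proteoglycans, was at 1.68 ± 0.65 (p = 0.0126) and, with the covariate, at 1.37 (p = 0.0645). Ntrk3, the receptor TrkC of neurotrophin 3, was lower at -0.64 ± 0.24 (p = 0.0117); it lay between 172 and 508 CPM (median 239.6) in the CTR libraries and between 47.009 and 306 CPM (median 152) in the mCRS libraries.

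Of 50 voltage-gated ion channel genes 2 were higher and 0 lower (4%), both potassium channel accessories: Kcnab1, given above, and Kcnip4, which binds Kv4 channels, at 0.62 ± 0.27 (p = 0.0256). Kcnip4 did not hold, its highest p without 1 library being 0.0538. Receptors for monoamines, acetylcholine, cannabinoids and peptides gave 0 of 24 genes at a p below 0.05. Their median was 0.16, with the muscarinic receptor Chrm3 at 1.66 ± 0.86 (p = 0.0589) and the peptide precursor Adcyap1 at 1.08 ± 0.65 (p = 0.106). Both are rare here, with CTR medians of 6.36 and 15.8 CPM and libraries at 0.

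In intracellular signalling, genes of calcium and calmodulin had 2 higher and 1 lower of 42 (7.14%). With the covariate there were 0 of either, beside 2.06% of all tested genes. Calm2 (ENSMUSG00000036438, chr17:87433412-87446935), one of the genes of calmodulin, the calcium sensor of many kinases, lay between 2068 and 4619 CPM (median 2823) in the CTR libraries and between 1959 and 6032 CPM (median 3788) in the mCRS libraries. The mCRS libraries spread more widely, 12 of 15 above the CTR median. Calm2 was at 0.40 ± 0.13 (p = 0.00234) and held, but with gene detection as a covariate it was 0.15 (p = 0.192). Vsnl1, a neuronal calcium sensor, was at 0.25 ± 0.12 (p = 0.0384) and did not hold. Of 47 cAMP and G protein genes, 1 was higher and 3 lower (8.51%). With the covariate 0 were higher and 1 lower, beside 2.06% of all tested genes. The adenylyl cyclase Adcy2, which makes cAMP, lay between 96.2 and 319 CPM (median 149) in the CTR libraries and between 38.7 and 192 CPM (median 103) in the mCRS libraries, and 13 of 15 mCRS libraries were under the CTR median. Its log2 fold change was -0.72 ± 0.26 (p = 0.00678) and -0.73 (p = 0.00976) with the covariate. Pde4b, a phosphodiesterase that breaks cAMP down, lay between 5.14 and 157 CPM (median 95.9) in the CTR libraries and between 42.9 and 265 CPM (median 144) in the mCRS libraries, at a log2 fold change of 0.72 ± 0.30 (p = 0.0218). Both held, and with the covariate Pde4b was at 0.42 (p = 0.213). The cyclase Adcy1 and the G protein subunit Gnao1 were lower at -0.34 ± 0.16 (p = 0.0340) and -0.29 ± 0.13 (p = 0.0340) and did not hold.

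Growth factor signalling had 1 of 37 genes higher, Bdnf, which rested on mCRS 9, and 1 lower, Ntrk3. That is 5.41% of the list, beside 3.50% of all tested genes. The BDNF receptor Ntrk2 was at -0.06 ± 0.17 (p = 0.717), with a 95% CI of -0.41 to 0.28. Among 44 mTOR and PI3K genes, Ddit4 was higher and Lamtor2 lower at a p below 0.05, 4.55% of the list. Lamtor2, a part of the Ragulator complex on lysosomes, was at -0.91 ± 0.40 (p = 0.0249). Lamtor2 had 14 of 15 mCRS libraries under the CTR median, and its p exceeded 0.05 without 1 of the 30 libraries (p = 0.0544 without CTR 13).

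Stress-response genes gave few small p values. Of 25 tested glucocorticoid receptors and targets, 1 was higher (4%) and the median was 0.17. The receptor genes Nr3c1 and Nr3c2 were at 0.20 ± 0.26 (p = 0.438) and 0.46 ± 0.96 (p = 0.635). Fkbp5, the co-chaperone of the receptor that glucocorticoids induce, lay between 0 and 56.5 CPM (median 6.57) in the CTR libraries and between 0 and 80.1 CPM (median 2.52) in the mCRS libraries, and Sgk1, a kinase they induce, between 0 and 128 CPM (median 30.3) in the CTR libraries and between 0.578 and 222 CPM (median 38.6) in the mCRS libraries. Within each group both span libraries at or near 0 to clearly detected levels, and their log2 fold changes were 0.32 ± 0.99 (p = 0.751) and 0.68 ± 0.55 (p = 0.226), within the spread of the libraries. The gene of the list past that p was Ddit4 (ENSMUSG00000020108, chr10:59949669-59951834), which encodes REDD1, an inhibitor of mTORC1 induced by glucocorticoids, hypoxia and ATF4; it is a member of 3 of the lists. Ddit4 lay between 0.530 and 45.2 CPM (median 3.08) in the CTR libraries and between 0 and 111 CPM (median 43.044) in the mCRS libraries. Most CTR libraries were near 0, 14 of 15 mCRS libraries were above the CTR median, and the highest CTR libraries lay within the mCRS range. Ddit4 was at a log2 fold change of 2.02 ± 0.73 (SE, 95% CI 0.56 to 3.48, p = 0.00771, FDR = 0.947), 1.86 to 2.39 without any 1 library and 2.14 (p = 0.0152) with the covariate. No other ATF4 target of 25 tested had a p below 0.05 (4% in all); Asns, the asparagine synthetase, was at 0.37 ± 0.25 (p = 0.148).

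The promoter of Ddit4 is shown because the gene belongs to the glucocorticoid, ATF4 and mTOR lists and is the only member of the first 2 past that p. The RefSeq window of GRCm38.p6, chr10:59951721-59952020 on the minus strand, runs from 250 bases before to 50 bases after the start, and capitals mark the one match to ACGTG, the core of the hypoxia response element, which is also part of the E-box.

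Ddit4 promoter: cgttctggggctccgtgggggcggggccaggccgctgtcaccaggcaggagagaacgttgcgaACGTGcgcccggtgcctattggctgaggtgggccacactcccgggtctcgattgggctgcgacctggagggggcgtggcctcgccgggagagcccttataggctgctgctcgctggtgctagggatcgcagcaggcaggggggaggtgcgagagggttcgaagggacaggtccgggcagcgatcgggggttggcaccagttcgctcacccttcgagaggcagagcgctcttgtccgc

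On both strands the window holds 1 match to ACGTG, which 19.6% of the 32851 RefSeq promoter windows of this length contain. It holds 0 matches to TGATGNAA, the core of the C/EBP-ATF response element (3.97% of windows), to TGACGTCA, the cAMP response element (1.79%), or to the palindromic consensus of the glucocorticoid response element (0.475%). Of the 31 ATF4 targets with a RefSeq window, 11 contain TGATGNAA, Asns among them, and of 31 genes of the glucocorticoid list 4 contain that palindrome, Sgk1 among them. These are matches of letters in a window and no evidence of binding.

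Immediate early genes, which neuronal activity induces within minutes, had 1 higher and 1 lower of 23 (8.70%), both of the Egr family of zinc finger factors. Egr1 lay between 75.1 and 326 CPM (median 223) in the CTR libraries and between 36.4 and 363 CPM (median 131) in the mCRS libraries. It had 14 of 15 mCRS libraries under the CTR median, but the highest level of all was that of mCRS 11. Egr1 was at -0.51 ± 0.24 (p = 0.0379) and Egr3 at 0.71 ± 0.34 (p = 0.0408), with highest p values of 0.0685 and 0.0981 without 1 library. Fos and Arc were at -0.88 ± 0.76 (p = 0.248) and -0.39 ± 0.55 (p = 0.482). None of the 18 circadian clock genes had a p below 0.05; the smallest were those of Arntl, the clock activator BMAL1, at -0.92 ± 0.60 (p = 0.132) and Hlf at -0.33 ± 0.28 (p = 0.242). The list median was -0.18, and -0.07 with the covariate.

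Of 53 chaperones of the cytosol and the endoplasmic reticulum, 1 was higher and 2 lower (5.66%). Dnaja1, a cofactor of Hsp70, lay between 121 and 485 CPM (median 231) in the CTR libraries and between 158 and 680.0 CPM (median 386) in the mCRS libraries. With 13 of 15 mCRS libraries above the CTR median, the log2 fold change was 0.50 ± 0.20 (p = 0.0148) and it held. Exons of Dnaja1 share up to 608 bases with Smu1 on the opposite strand, which was at -0.11 ± 0.37 (p = 0.763). Hspa8, the constitutive Hsp70 itself, was at -0.06 ± 0.13 (p = 0.638), with a 95% CI of -0.32 to 0.20. The lower genes were Cct8, which rested on CTR 1, and Dnajc5, a vesicle co-chaperone, at -0.45 ± 0.21 (p = 0.0369), which did not hold.

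Among 58 actin and actin-binding genes 3 were higher and 0 lower at a p below 0.05 (5.17%), and among 58 genes of microtubules and tau 0 were higher and 4 lower (6.90%); the list medians were near that of all genes, -0.01 and -0.02, and the difference between the lists was not tested. With gene detection as a covariate the actin list had 2 higher and 2 lower and the microtubule list 1 higher and 2 lower, so that neither was one-sided. Next to Tmsb4x, the higher actin genes were Pak1, a kinase that acts on actin downstream of Rac, and the profilin Pfn2. Pak1 lay between 151 and 428 CPM (median 273) in the CTR libraries and between 243 and 696 CPM (median 346) in the mCRS libraries. Its 14 libraries above the CTR median included mCRS 3, the highest, and the log2 fold change of 0.44 ± 0.17 (p = 0.0120) held, at p = 0.0377 without mCRS 3. Pfn2 was at 0.34 ± 0.15 (p = 0.0234) and did not hold. Next to Mapt, the lower microtubule genes were Map1b, a microtubule-associated protein of axons, at -0.25 ± 0.10 (p = 0.0165), the kinesin light chain Klc2 at -0.51 ± 0.24 (p = 0.0406), and Cdk5r1, the activator p35 of the tau kinase Cdk5, at -0.63 ± 0.25 (p = 0.0158). Map1b held and Klc2 did not. Cdk5r1 rested on CTR 1, which at 2397 CPM was 3.92 times the next library, and was at -0.18 (p = 0.358) without it.

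Glial and vascular genes were mostly within the spread of the libraries. Of 36 astrocyte genes 1 was lower and 0 higher (2.78%), and the median was -0.04. That gene was Slc1a3 (ENSMUSG00000005360, chr15:8634124-8710764), the glutamate transporter GLAST, which lay between 321 and 679 CPM (median 513) in the CTR libraries and between 67.6 and 532 CPM (median 389) in the mCRS libraries. All but 1 of the mCRS libraries were under the CTR median. Slc1a3 was at a log2 fold change of -0.51 ± 0.17 (SE, p = 0.00429, FDR = 0.898), with -0.56 to -0.43 without any 1 library and -0.58 (p = 0.00292) with the covariate. Slc1a2, the transporter GLT-1 that clears most synaptic glutamate, lay between 1138 and 2841 CPM (median 1984) in the CTR libraries and between 1047 and 2835 CPM (median 2006) in the mCRS libraries. Its log2 fold change was -0.05 ± 0.12 with a 95% CI of -0.30 to 0.19. The water channel Aqp4 was at -0.89 ± 0.56 (p = 0.118) and Gfap at -0.03 ± 0.68 (p = 0.960), both with libraries at or near 0.

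Myelin and mature oligodendrocytes had 1 of 37 genes higher (2.70%) and a median of 0.10. Mbp, the myelin basic protein gene, was at 0.05 ± 0.16 (p = 0.750). Ugt8a, which makes the myelin lipid galactosylceramide, was the gene past that p, at 1.28 ± 0.56 (p = 0.0266). It lay between 3.98 and 62.6 CPM (median 32.9) in the CTR libraries and between 0 and 244 CPM (median 76.2) in the mCRS libraries and did not hold without mCRS 12 (p = 0.0826). Apod, a lipocalin of oligodendrocytes, was at 0.48 ± 0.25 (p = 0.0601), and of 11 precursor genes 0 had a p below 0.05, with Olig1 at -0.54 ± 0.40 (p = 0.180) and Bcas1 at 0.49 ± 0.41 (p = 0.244). Microglial genes had 2 higher and 1 lower of 32 (9.38%) and a median of 0.01. With the covariate 0 were higher and 1 lower, beside 2.06% of all tested genes. B2m, the light chain of MHC class I, which many cells express, lay between 91.5 and 323 CPM (median 188) in the CTR libraries and between 125 and 471 CPM (median 307) in the mCRS libraries, and was at 0.59 ± 0.21 (p = 0.00796), which held. P2ry13, a purinergic receptor of microglia, was lower. It lay between 0 and 69.9 CPM (median 9.20) in the CTR libraries and between 0 and 32.3 CPM (median 0) in the mCRS libraries, the mCRS median being 0 CPM, and its log2 fold change of -2.46 ± 1.05 (p = 0.0224) held. The microglial genes Cx3cr1 and C1qa were at 0.65 ± 0.83 (p = 0.442) and -0.24 ± 0.41 (p = 0.559). Endothelial and pericyte genes had 1 lower of 25 (4%), Vtn, the vitronectin gene of pericytes, which lay between 3.77 and 183 CPM (median 84.044) in the CTR libraries and between 12.6 and 99.1 CPM (median 45.1) in the mCRS libraries. Vtn was at -1.0 ± 0.39 (p = 0.0132) and held, whereas the tight junction gene Cldn5 was at -0.59 ± 0.52 (p = 0.263) and Ly6e at -0.24 ± 0.20 (p = 0.232).

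Genes of neighbouring tissues overlapped between the groups. The 20 listed striatal genes summed to between 734 and 2194 CPM (median 1090.3) in the CTR and between 836 and 2073 CPM (median 1227) in the mCRS libraries. Drd1, Drd2 and Adora2a had 0 counts in 3, 11 and 7 of the 30 libraries. Of 15 tested members, 1 was higher at a p below 0.05 (6.67%), Tac1. Blood genes summed to between 321 and 1521 CPM (median 773) in the CTR and between 431 and 1146 CPM (median 856) in the mCRS libraries, with Hba-a1 at -0.62 ± 0.44 (p = 0.168) and Hbb-bs at 0.19 ± 0.17 (p = 0.283). Reads that match near-identical copies such as Hba-a1 and Hba-a2 equally well are missing from both, as only uniquely mapped reads were counted. Genes of meninges summed to between 52.2 and 266 CPM (median 87.7) in the CTR and between 15.8 and 251 CPM (median 158) in the mCRS libraries, with Bgn at 1.20 ± 0.92 (p = 0.200) and Col1a2 at 0.81 ± 0.89 (p = 0.368). For the choroid plexus the sums lay between 172 and 582 CPM (median 336) in the CTR and between 190.5 and 567 CPM (median 404) in the mCRS libraries, with Enpp2, also made by oligodendrocytes, at 0.32 ± 0.19 (p = 0.0978) and Igfbp2 at -0.88 ± 0.61 (p = 0.156). Penk, the enkephalin precursor of striatal neurons, was at 0.36 ± 0.25 (p = 0.155).

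**Figure D5:**
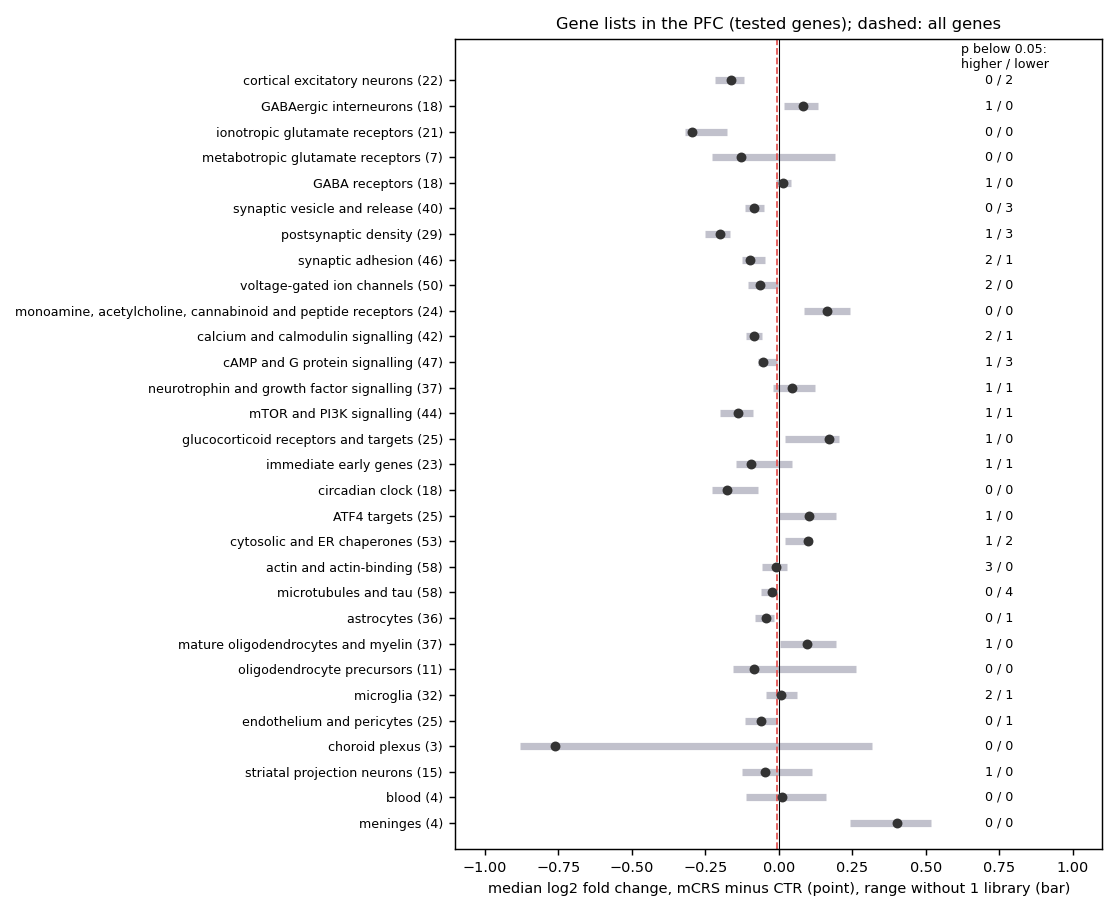
Median log2 fold change (mCRS minus CTR) of each gene list in the PFC (point) with the range of that median over the 30 fits without 1 library (bar); the number of tested genes stands after each name, the numbers of genes at an unadjusted p below 0.05 (higher / lower) at the right, and the dashed line is the median of all 8916 genes, -0.01. Ionotropic glutamate receptors, the postsynaptic density and cortical excitatory neurons have medians of -0.30, -0.20 and -0.16, and lists of 3 to 11 genes have wide bars.

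Of the 37 named genes with a p below 0.05, 25 held without any 1 library, 30 had a p below 0.05 in the test on ranks and 24 with gene detection as a covariate. Of all 312 genes at that p, 145 held, 244 passed 0.05 in the rank test and 114 with the covariate. As both sets were chosen for a small p in the same libraries, the counts are a description. Over all tested genes, 6.84% passed 0.05 in the rank test and 2.06% with the covariate. Tmsb4x, Mapt, Yrdc, Txndc16, Kcnab1, Slc1a3, Dlg1, Cadm2, Adcy2, Ntrk3, Pak1, Ddit4, Dnaja1, Vtn and Usmg5 were among those that passed 0.05 in all of these, whereas Camk2a, Sv2a, Nsf, Calm2, Pde4b, B2m, P2ry13, Timm8b and Minos1 passed it in all but the fit with the covariate.

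Whether a PFC difference was larger or smaller than that in the NAc was tested by an interaction term in a fit of all 62 libraries. Of 11025 genes tested, 341 (3.09%) had an unadjusted p below 0.05 and 1 an FDR below 0.05 (0.00907%), Rspo2, a secreted activator of Wnt signalling that was named after its values were seen. Of the 85 named genes 19 had a p below 0.05. As most of the named genes were chosen for a small p in the PFC, this count is a description. The smallest FDR among them, 0.0812, was that of Peg3, which rested on mCRS 3 in the PFC. Rab31, Bdnf and Cct8, which also rested on 1 PFC library each, were among the 19. Of the genes described below, Tmsb4x had an interaction FDR of 0.954 and the others 0.99997 each. Tmsb4x was at 0.02 ± 0.11 (p = 0.864) in the NAc, and the difference between regions was 0.53 ± 0.15 (p = 0.000848). For Mapt the NAc value was -0.12 ± 0.14 (p = 0.419) and the difference -0.42 ± 0.21 (p = 0.0447). Ddit4 was at -0.07 ± 0.54 (p = 0.901) in the NAc, a difference of 2.08 ± 0.79 (p = 0.00965), and Kcnab1 at 0.09 ± 0.33 (p = 0.788), a difference of 1.02 ± 0.47 (p = 0.0336). Adcy2 lay on opposite sides of 0, with 0.76 ± 0.35 (p = 0.0347) in the NAc and a difference of -1.48 ± 0.51 (p = 0.00440), and so did Nrgn, with 0.27 ± 0.12 (p = 0.0263) and -0.48 ± 0.17 (p = 0.00703). Camk2a was at 0.06 ± 0.14 (p = 0.678) in the NAc, with a difference of -0.43 ± 0.20 (p = 0.0403). Slc1a3 and Calm2 had the same sign in both regions: Slc1a3 was at -0.35 ± 0.16 (p = 0.0275) in the NAc with a difference of -0.17 ± 0.22 (p = 0.447), and Calm2 at 0.25 ± 0.12 (p = 0.0424) with 0.15 ± 0.17 (p = 0.389). The paper describes PFC and NAc tissue taken from the same animals, but the labels do not tie the libraries of a mouse. Libraries were therefore taken as independent in this test, which ignores that pairing. The SE and p values of the interaction are approximate for that reason, and the effect of the pairing was not tested.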

How the data were processed

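PFC tissue of 15 CTR and 15 mCRS mice was analysed, 1 library per mouse, and 2 further PFC samples had been removed by the authors for poor sequencing quality. The authors reverse-transcribed 50 ng of total RNA with barcoded oligo-dT primers, pooled the samples (BRB-seq), mapped reads with STAR to GRCm38 (mm10) and counted uniquely mapped reads per gene with HTSeq (0.9.1 in the submitters' processing notes). The deposited values are raw whole-number counts of 11121 genes, without molecular identifiers, so that PCR copies are counted; 15.3% of PFC values were 0. The rule that left these genes, and the use of strand, are not given in the sources used here. Replicates are separate mice.

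Counts were fitted with edgeR 4.0.16 (R 4.3.3; TMM, filterByExpr by group, glmQLFit, glmQLFTest), with Benjamini-Hochberg adjustment over all tested genes and a call at an FDR below 0.05. The median biological coefficient of variation was 1.01. Single values per library were compared by two-sided permutation tests (100000 resamples, scipy 1.17.1). Log2 CPM used a prior count of 2. The interaction fit covered all 62 libraries. Scripts were tested on simulated data. Promoters are from RefSeq (GRCm38.p6) and coordinates from the GENCODE annotation of GRCm38; 11120 of 11121 identifiers matched a symbol.

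The 31 gene lists (997 genes, 830 of them tested) and the named genes were chosen with earlier results of these data known. Named are the 12 genes of smallest p outside the mitochondrial and ribosomal families (by symbol), the 2 tested members of smallest p in each list, and 30 fixed genes, 85 in all; some genes of the rule and of the lists are not reported here. Syt7, Dlgap3, Lrrtm4, Vsnl1, Adcy1, Gnao1, Dnajc5, Pfn2, Map1b, Klc2, Rspo2 and the neighbours of Yrdc and Dnaja1 were named after their values were seen. Of the 15 alternatives planned, DESeq2 1.42.0 and limma 3.58.1 (voom with sample quality weights) replaced the tool, others the normalization, filter, covariates, depth, spread, or libraries. The rank test, the fit without mCRS 3 and 12 and the alternatives of the interaction and library measures were added after seeing the data.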

Additional observations from a re-analysis of the deposited data

Results flagged for a closer look

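Rspo2, a secreted activator of Wnt signalling, was the gene whose difference between mCRS and CTR differed between the regions at an FDR below 0.05. The PFC effect minus the NAc effect was 8.21 ± 1.46 on the log2 scale (SE, FDR = 0.00211, edgeR quasi-likelihood test of the interaction). In the PFC, Rspo2 had 877 counts in 13 of 15 CTR libraries and 1532 counts in 14 of 15 mCRS libraries, a log2 fold change of 1.05 ± 0.74 (p = 0.162). In the NAc it had 290 counts in 7 of 16 CTR libraries, up to 120 in 1 of them, and 1 count in 1 of 16 mCRS libraries. The difference thus came with an NAc group at 1 count, and the fold depends on the prior count. With RLE normalization it was 8.37 (FDR = 0.00176) and with a robust spread 8.21 (FDR = 0.00112). Rspo2 did not pass the stricter filter, which asks for 10 or more counts in 50% of all libraries, and was then not tested.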

How the results depend on the processing

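Against 312 genes at an unadjusted p below 0.05 (60.6% of them higher), gene detection as a covariate left 184, voom with sample quality weights gave 751 (32.1% higher) and the rank test 610 (37.5% higher); the causes were not tested. The split also moved with upper-quartile normalization (308 genes, 50.3% higher), without a filter (442, 50.7% higher) and with the replicate number as a block (415, 41.4% higher). Against 0 genes at an FDR below 0.05 there were 2 without mtDNA genes in the library size (Rab31, Tmsb4x), 1 without a filter (Rab31), 1 with the replicate block (Tmsb4x), 1 after thinning (Rab31), 2 with voom (mt-Nd2, mt-Nd5, for which the voom weights put 100% and 53.1% of the weight on 1 library each, beside a median of 7.65% over all tested genes) and 4 with all 62 libraries in 1 fit (Cct8, Peg3, Rab31, Tmsb4x). Leaving out 1 library gave 275 to 361 genes at a p below 0.05 and 0 to 2 at an FDR below 0.05: Rab31 without CTR 1, 10, 11 or 14 and Tmsb4x without CTR 14 or mCRS 4. Whether equal numbers mark matched mice is not given. Same-numbered CTR and mCRS libraries had correlations of -0.029 to 0.068, 0 of 15 over 0.1, after removal of the group means. Of 15 mCRS libraries, 1 correlated best with its own number. At this spread between libraries, low correlations cannot exclude that the mice were matched by number.

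Peg3 turned to -0.22 with DESeq2, -0.055 with the replicate block and -0.18 without mCRS 3 and 12 (-0.24 to 2.69 without 1 library), and Cct8 to 0.50 with DESeq2 and 0.078 with the replicate block (-2.19 to 0.49 without 1 library). The other 35 named genes with a p below 0.05 kept their sign under all 16 alternatives and all 30 fits without 1 library. Of the other named genes, 12 changed sign in at least 1 of the 16, never with a p below 0.05 on either side, among them Gfap, Snap25 and Sst. Of the 30 list medians 13 changed sign under at least 1 of the 16. The difference in the share of genes detected was -2.93 percentage points without mCRS 3 and 12 (p = 0.0852). That in total counts was -441629 (p = 0.0946), and between -572760 and -320647 without 1 library, p = 0.0132 without mCRS 4. The interaction gave 0 genes at an FDR below 0.05 with the strict filter. At a median SE of 0.57, log2 fold changes under about 1 of a typical gene were within the error, and low counts, as for Fkbp5 or Cx3cr1, limit what can be seen at this depth.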
